A study of Mus musculus with 12 samples.

Results

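Fatty acid uptake and oxidation was described from 10 genes, taken by name from the gene expression table of 26190 genes: Cd36, Fabp3, Cpt1a, Cpt1b, Cpt2, Acadvl, Acadl, Acadm, Hadha and Ppara. All 10 were found once and all 10 passed the low-count filter in every comparison. The 12 RNA-seq libraries came from 4 groups of 3 replicates. One pair of groups was atria and ventricles of C57BL/6 mouse hearts at E11.5 (E11.5H). The others were atrium-like and ventricle-like parts of heart organoids (HOs), dissected after the HOs had been grown for 13 days from mouse embryonic stem cells on a laminin and entactin gel with FGF4. The HO medium also contained a serum replacement, insulin, progesterone and estradiol, and BMP4, BIO and LIF were added late in the culture. The labels give C57BL/6 for the HOs too, whereas the methods name wild-type stem cell lines of C57BL/6 and of a C57BL/6 × JF1 hybrid without tying a line to a library. The methods describe 13-day HOs in biological triplicate, each divided into both parts, so that the 6 HO libraries may come from the same 3 cultures, and no source used here says whether equal replicate numbers mark the same HO or whether several hearts or HOs were pooled. The p-values measure the spread between these libraries and take them as independent.

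Long-chain fatty acids enter cells with the help of CD36 and are carried in the cytosol by fatty acid binding proteins, of which FABP3 is the heart and muscle form. CPT1 in the outer mitochondrial membrane joins the acyl chain to carnitine, and this is the regulated step of the pathway. CPT1A is the form of the liver and many other tissues, CPT1B is the form of muscle, and CPT1C is best known from neurons. CPT2 returns the chain to coenzyme A inside the mitochondrion. ACADVL, ACADL and ACADM then carry out the first oxidation on very long, long and medium chains, and HADHA is a subunit of the trifunctional protein that performs later steps on long chains. PPARα, encoded by Ppara, is a nuclear receptor that turns on many of these genes, in liver above all. The embryonic heart relies largely on glycolysis, and fatty acid oxidation becomes its main energy source after birth.

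Each library held between 23971258 and 30540993 fragments in genes. Cell content was followed by scores, each the mean log2 of CPM (counts scaled to the same library total) plus 0.5 over a list of marker genes. The score of 16 cardiomyocyte genes, all detected in every library, lay between 9.10 and 9.38 in E11.5H and between 4.48 and 8.05 in HOs. The score of 12 hepatocyte and visceral endoderm genes, called the endoderm score here, lay between -0.13 and 0.54 in E11.5H and between 1.49 and 8.90 in HOs. HO parts thus differed from E11.5H and from each other in these scores. Skeletal muscle genes were also held by 2 of the 6 HO libraries, atrium-like replicate 2 and ventricle-like replicate 2. Their skeletal muscle scores were 2.87 and 2.99, with 9 of 10 genes detected. Of E11.5H, atria replicate 3 had a score of 1.52 with all 10 detected, and the other 9 libraries were at 0.112 or below. In bulk RNA, fewer cells of a type and less RNA per cell cannot be told apart.

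The promoter sequences of 9 of the 10 genes were found in the RefSeq set of GRCm38.p6. PPARα binds, together with RXR, direct repeats of the hexamer AGGTCA with 1 base between the copies, so the 250 bases before each start were searched for AGGTCA on both strands. The hexamer was found in the windows of Cpt1a, Acadm, Acadvl and Cd36, which are 4 of the 9, and in 14% of all 32851 windows of the same length. The starts are those of the promoter set. For Cd36 the window (chromosome 5 from 17835897 to 17836146) lies inside the gene as placed below. That of Ppara (chromosome 15 from 85735526 to 85735775) runs past the start given below. The repeat of 2 copies with any base between them was found in none of the 9 and in 0.0335% of all windows. The windows of Cpt1a, which rose in both HO parts, and of Fabp3, which fell in ventricle-like parts, are shown with the hexamer in capitals. The Cpt1a window lies at chr19:3323051-3323300 on the plus strand and holds the hexamer once, on the opposite strand. The Fabp3 window lies at chr4:130308488-130308737 on the plus strand and does not hold it.
Cpt1a: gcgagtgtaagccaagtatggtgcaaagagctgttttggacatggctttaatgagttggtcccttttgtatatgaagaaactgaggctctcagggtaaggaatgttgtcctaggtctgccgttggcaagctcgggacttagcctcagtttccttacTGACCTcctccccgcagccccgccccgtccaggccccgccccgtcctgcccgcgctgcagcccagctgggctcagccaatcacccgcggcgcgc
Fabp3: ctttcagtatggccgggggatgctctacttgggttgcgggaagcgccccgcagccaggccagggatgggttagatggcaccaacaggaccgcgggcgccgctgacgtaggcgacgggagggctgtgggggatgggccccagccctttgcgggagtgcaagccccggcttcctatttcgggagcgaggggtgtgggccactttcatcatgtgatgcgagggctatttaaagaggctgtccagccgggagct
These matches describe the letters in these windows only.

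The levels of the 10 genes, as deposited FPKM, which is corrected for transcript length and library total, were first compared across the 4 groups. Fabp3 had the highest mean level of the 10 in both chambers of E11.5H, and Acadl had the highest in both HO parts. Ppara was the lowest in every group, at or below 1.02 FPKM on average. Except for Ppara, each gene lay above at least 67.4% of all genes of the table in every library. The levels of HO libraries varied far more than those of E11.5H. Overlap between groups is given below as a description only, since how many of all genes did not overlap was not counted. Within HOs, atrium-like replicate 1 had the highest value of 7 of the 10 genes, namely Cpt1a, Cpt2, Acadvl, Acadl, Acadm, Hadha and Ppara, and the lowest value of Cpt1b and Fabp3. This library also had the highest endoderm score and the lowest cardiomyocyte score. Ventricle-like replicate 2, with the lowest endoderm score, had the lowest value of 5 genes, namely Cpt2, Acadl, Acadm, Hadha and Ppara.

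**Figure D1:**
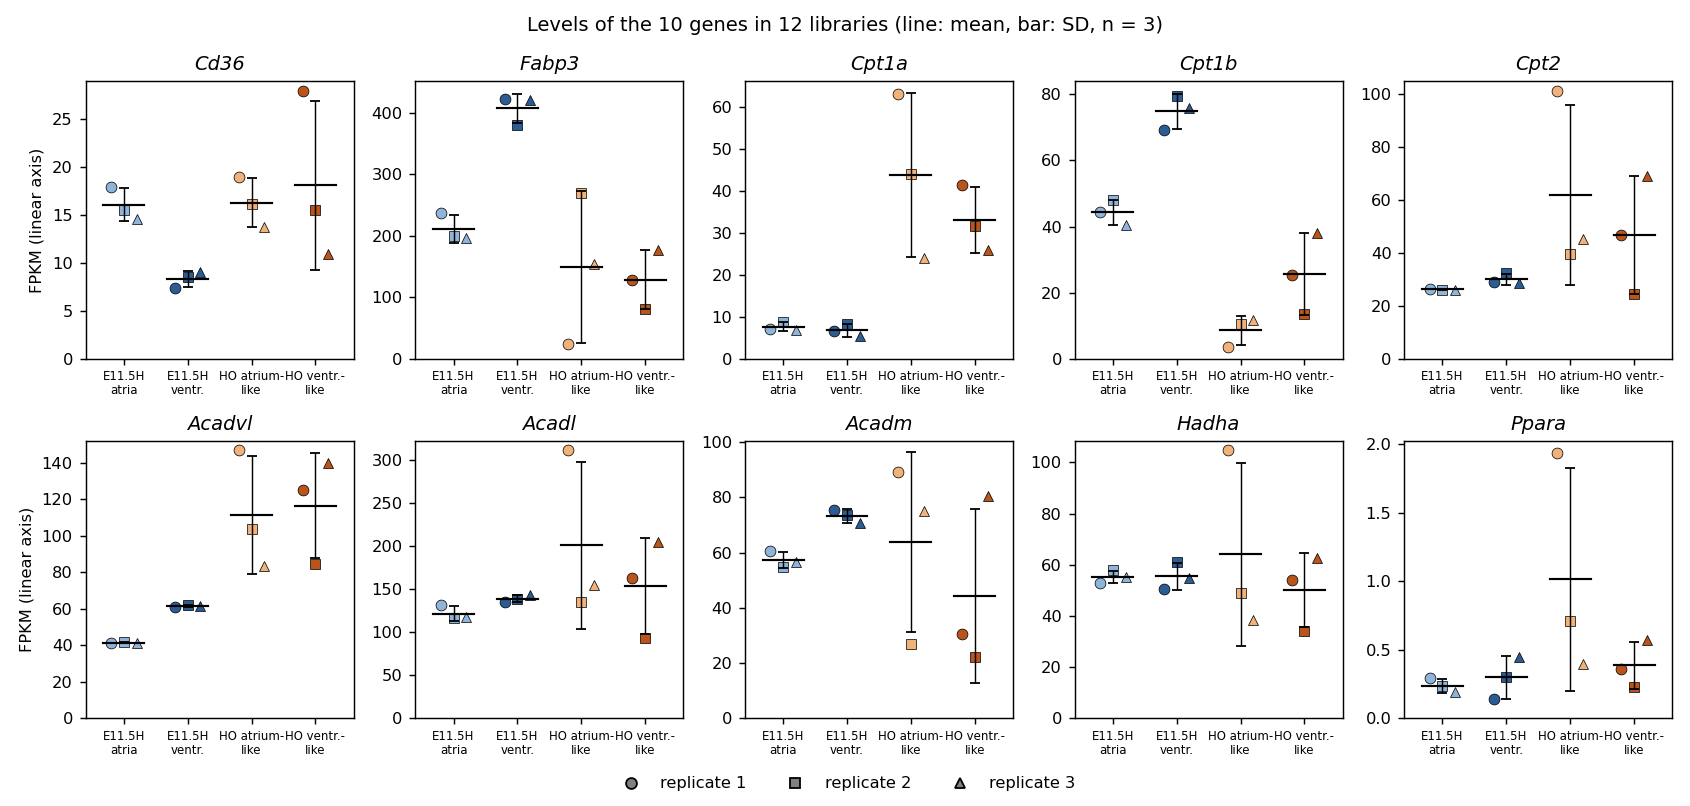
FPKM of the 10 genes (linear axes from 0) in each of the 12 libraries, with the mean as a line and the SD as a bar (n = 3) for each group. The E11.5H replicates lie close together, Cpt1a lies at 5.34 to 8.84 FPKM in E11.5H and at 23.96 to 63.0 in HOs, and Cpt1b lies at 40.5 FPKM or more in E11.5H and at 3.53 to 38.2 in HOs.

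Among the uptake genes, Cd36 (chromosome 5 from 17781690 to 17888959 of GRCm38, minus strand) had 17.9, 15.5 and 14.6 FPKM in atria and 7.38, 8.53 and 9.02 FPKM in ventricles of E11.5H. In atrium-like parts it had 18.9, 16.2 and 13.7 FPKM, and in ventricle-like parts 27.9, 15.5 and 10.9 FPKM. The ventricles of E11.5H were the lowest group and overlapped with no other, and the other 3 groups overlapped. Fabp3 (chromosome 4 from 130308738 to 130315463, plus strand) had 237, 200 and 197 FPKM in atria and 422, 380 and 421 FPKM in ventricles of E11.5H. It had 23.7, 270 and 154 FPKM in atrium-like parts and 127, 81.4 and 177 FPKM in ventricle-like parts. The ventricles stood above the atria without overlap, atrium-like parts overlapped with both atria and ventricle-like parts, and atrium-like replicate 1 was far below all other libraries. Exons of Fabp3 overlap those of Zcchc17 on the opposite strand in the GENCODE annotation, and since the use of strand in counting is not given in the sources used here, reads from the pair cannot be told apart there.

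At the carnitine step the groups were furthest apart. Cpt1a (chromosome 19 from 3323301 to 3385733, plus strand) had 7.10, 8.84 and 6.90 FPKM in atria and 6.65, 8.33 and 5.34 FPKM in ventricles of E11.5H. It had 63.0, 44.0 and 23.96 FPKM in atrium-like parts and 41.4, 31.6 and 25.8 FPKM in ventricle-like parts. Every HO library was above every E11.5H library, while the parts of HOs overlapped with each other and so did the chambers of E11.5H. Cpt1b (chromosome 15 from 89416405 to 89425862, minus strand) had 44.4, 48.1 and 40.5 FPKM in atria and 69.1, 79.5 and 76.0 FPKM in ventricles of E11.5H. It had 3.53, 10.4 and 11.8 FPKM in atrium-like parts and 25.3, 13.4 and 38.2 FPKM in ventricle-like parts. The order from ventricles over atria and ventricle-like parts to atrium-like parts was free of overlap at each step. Cpt1b is also part of a readthrough transcript with Chkb, annotated as Gm44502 on the same strand, so some of its fragments may belong to that transcript.

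Cpt2 (chromosome 4 from 107903982 to 107923589, minus strand) had 26.2 ± 0.227 FPKM (SD, n = 3) in atria, 30.1 ± 2.10 in ventricles, 62.0 ± 34.0 in atrium-like and 46.8 ± 22.4 in ventricle-like parts. Its HO range, from 24.4 to 101 FPKM, included the levels of both chambers. Of the acyl-CoA dehydrogenases, Acadvl (chromosome 11 from 70010183 to 70015428, minus strand) had 41.5 ± 0.0849 FPKM in atria, 61.6 ± 0.493 in ventricles, 111 ± 32.4 in atrium-like and 116 ± 28.7 in ventricle-like parts (SD, n = 3). All 6 HO libraries, at 83.2 to 147 FPKM, were above all 6 libraries of E11.5H, and ventricles were above atria. Exons of Acadvl overlap those of Dvl2 on the opposite strand, which limits its values in the same way as for Fabp3.

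Acadl (chromosome 1 from 66830839 to 66863309, minus strand) had 122 ± 8.64 FPKM in atria, 139 ± 4.13 in ventricles, 201 ± 96.5 in atrium-like and 154 ± 56.0 in ventricle-like parts (SD, n = 3). Acadm (chromosome 3 from 153922353 to 153944643, minus strand) had 60.5, 54.7 and 56.6 FPKM in atria, 75.5, 73.8 and 70.7 FPKM in ventricles, 89.4, 27.1 and 75.0 FPKM in atrium-like and 30.6, 22.2 and 80.4 FPKM in ventricle-like parts. The HO values of Acadm fell into a high trio of atrium-like replicates 1 and 3 and ventricle-like replicate 3 and a low trio of the others, so that both parts spanned the levels of E11.5H. Hadha (chromosome 5 from 30119423 to 30154980, minus strand) had 55.2 ± 2.46 FPKM in atria, 55.4 ± 5.19 in ventricles, 64.0 ± 35.6 in atrium-like and 50.2 ± 14.6 in ventricle-like parts (SD, n = 3), and all neighbouring groups overlapped. Ppara (chromosome 15 from 85735564 to 85806851, plus strand) had 0.239 ± 0.0505 FPKM in atria, 0.298 ± 0.155 in ventricles, 1.02 ± 0.814 in atrium-like and 0.386 ± 0.171 in ventricle-like parts (SD, n = 3). Its counts were 34 or more in every library, and its neighbouring groups overlapped throughout.

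The liver form and the muscle form of CPT1 were then set against each other within each library. In E11.5H the muscle form was the more abundant one, since the level of Cpt1b was 5.44 to 6.25 times that of Cpt1a in atrial and 9.54 to 14.2 times in ventricular libraries. In atrium-like parts the level of Cpt1a was 17.9, 4.23 and 2.02 times that of Cpt1b in replicates 1, 2 and 3. In ventricle-like parts it was 1.64, 2.36 and 0.675 times that of Cpt1b, so Cpt1a was the more abundant form in 5 of the 6 HO libraries and ventricle-like replicate 3, the library with the highest cardiomyocyte score among HOs, was the exception. The log2 ratio of Cpt1a to Cpt1b was -2.55 ± 0.10 in atria, -3.49 ± 0.30 in ventricles, 2.42 ± 1.60 in atrium-like and 0.46 ± 0.93 in ventricle-like parts (SD, n = 3).

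On the log2 scale, atrium-like parts exceeded atria by 4.97 and ventricle-like parts exceeded ventricles by 3.95 in this ratio, with no overlap in either pair (two-sided exact permutation test, p = 0.1 for both). Between atria and ventricles of E11.5H it differed by 0.94 without overlap (exact permutation p = 0.1). Between the HO parts it differed by 1.96, and the parts overlapped (exact permutation p = 0.2). With 3 libraries against 3, 0.1 is the smallest p that this test can give, and after Benjamini-Hochberg adjustment over the 4 pairs the values were 0.133, 0.133, 0.133 and 0.2. Being a ratio within a library, it does not depend on how libraries were scaled. It does not tell a change within cardiomyocytes from a change in cell content.

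The third form, Cpt1c, lay between 1.96 and 2.96 FPKM in E11.5H and between 4.11 and 16.0 FPKM in HOs, and it rose in atrium-like parts against atria (log2 2.01, SE 0.40, edgeR adjusted p = 0.0144) and in ventricle-like parts against ventricles (log2 2.38, SE 0.25, edgeR adjusted p = 0.00265). Of the summed FPKM of the 3 forms, Cpt1b made up between 80.3% and 82.7% in atrial libraries and between 87.7% and 90.6% in ventricular ones. In HOs its share lay between 22.0% and 51.4% for ventricle-like and between 4.99% and 25.4% for atrium-like parts. Cpt1a made up between 51.3% and 89.2% of the total for atrium-like and between 34.7% and 51.8% for ventricle-like parts, against 6.36% to 14.8% in E11.5H.

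**Figure D2:**
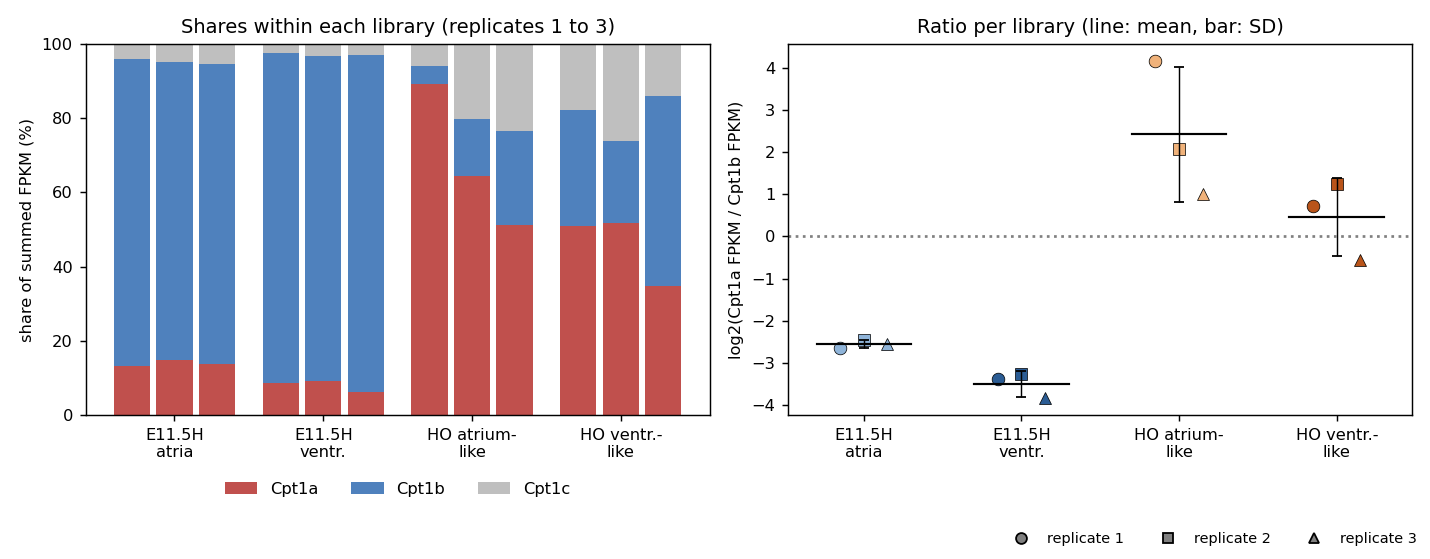
Left, shares (%) of Cpt1a, Cpt1b and Cpt1c in their summed FPKM for replicates 1 to 3 of each group. Right, log2 of the ratio of Cpt1a to Cpt1b FPKM in each library with the mean (line) and SD (bar), where 0 means equal levels. All 6 E11.5H libraries lie below 0 and 5 of the 6 HO libraries lie above 0.

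Over all 12 libraries the log2(FPKM + 1) values of Cpt1a and Cpt1b had a Pearson correlation of -0.87, which reflects the difference between E11.5H and HOs. Among 12786 genes with a mean of at least 1 FPKM, the 5 with the pattern most like that of Cpt1a were Lipa, Chuk, Ugdh, Plin2 and Ltbr, with correlations of 0.98 to 0.99. LIPA is the lysosomal acid lipase and PLIN2 coats lipid droplets. The 5 most like Cpt1b were Hspb7, Pygm, Kcng2, Trdn and Alpk2, with correlations of 0.98 to 0.99. HSPB7 is a small heat shock protein of heart muscle, PYGM is the muscle glycogen phosphorylase and TRDN is triadin of the junctional sarcoplasmic reticulum, which is 1 of the 16 genes of the cardiomyocyte score. With 4 groups that stand apart, these correlations describe likeness over the 12 libraries and were not tested.

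Between the chambers of E11.5H, each of the 10 genes differed by 2.02-fold or less. Fabp3, Cpt1b, Acadvl and Acadm were lower in atria than in ventricles, and Cd36 was higher in atria. Fabp3 was 2.02-fold lower in atria (log2 -1.02, SE 0.09, edgeR quasi-likelihood adjusted p = 8.39e-05), and Cpt1b was 1.77-fold lower (log2 -0.83, SE 0.09, edgeR adjusted p = 0.000164). Acadvl was 1.56-fold lower (log2 -0.64, SE 0.07, edgeR adjusted p = 0.000163), and Acadm was 1.34-fold lower (log2 -0.43, SE 0.07, edgeR adjusted p = 0.00307). Cd36 was 1.83-fold higher in atria (log2 0.88, SE 0.12, edgeR adjusted p = 0.00111). These 5 of the 10 genes passed the threshold, an adjusted p under 0.05 over all genes tested, where 13.6% of the 14536 genes tested did. Cpt2 (log2 -0.27, adjusted p = 0.0513) and Acadl (log2 -0.26, adjusted p = 0.0529) did not pass by edgeR's test, and Hadha, Ppara and Cpt1a had values of -0.08, -0.40 and 0.10.

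The 5 calls held when any 1 library was left out, but none of the 10 genes passed when all 12 libraries shared 1 estimate of the spread, a fit in which 32 genes of the whole table passed. Scaled to the cardiomyocyte genes, 1 gene rose and 3 fell, against 1 and 4 without that scaling. Cd36 is also expressed by endothelial cells and macrophages. The score of 10 macrophage genes lay between 2.34 and 2.97 in atria and between 1.09 and 1.56 in ventricles, where 9 or 10 of the genes were detected, and that of 10 endothelial genes was 5.93 to 6.21 and 5.88 to 6.03, with all 10 detected. The part of these cells in the Cd36 difference was not tested. Atrial libraries had 6.37 to 7.27 and ventricular libraries 6.99 to 9.41 for a score of 10 erythroid genes.

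Of 67 further genes of the pathway, 60 were tested between the chambers, 5 rose and 15 fell in atria, which is 33.3% called against 13.6% over all genes. None was called when all 12 libraries were fitted together. The median log2 difference of the 60 was -0.03, against 0.01 over all genes tested and -0.33 over the 10 genes. The 5 largest changes among those with at least 1 FPKM were rises of Acsl6, an acyl-CoA synthetase (log2 3.02), of Abcd2, a peroxisomal fatty acid transporter (2.75), of Fabp7, the brain form of the binding proteins (1.92), and of Angptl4, an inhibitor of lipoprotein lipase (1.23), and a fall of Vldlr, a lipoprotein receptor (-0.85). Their adjusted p by edgeR was 0.00929 to 0.0318. Acsl6 and Vldlr were called each time 1 library was left out. Fabp7 was lost without atria replicate 2 or ventricles replicate 2 (adjusted p up to 0.0582), Abcd2 without atria replicate 2 or 3 or ventricles replicate 3 (up to 0.107), and Angptl4 without any library other than ventricles replicate 1 (up to 0.121). Of 13 genes of mitochondrial β-oxidation other than the 10, 4 fell and none rose. By edgeR 7 of the 13 had an unadjusted p under 0.05, as did 3908 of the 14536 genes tested.

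Between the HO parts, none of the 10 genes passed the threshold, and neither did any other gene, so that 0% of the 15703 genes tested passed. DESeq2 called 76 genes of the whole table and none of the 10. Cpt1b was the gene of the 10 whose parts did not overlap, and how many of all genes did not overlap was not counted, so no result is read from this. Its log2 difference was -1.45 (SE 0.53) in atrium-like parts, with an unadjusted p of 0.0323 and an adjusted p of 0.750 by edgeR. Cpt1b was the only one of the 10 with an unadjusted p under 0.05. The other 9 genes had log2 differences of 0.04 to 1.66, with standard errors of 0.36 to 0.79. Without atrium-like replicate 1 those of Cpt2, Acadvl, Acadl, Hadha and Cd36 took the opposite sign, with values of -0.08, -0.27, -0.02, -0.15 and -0.22. Atrium-like parts had cardiomyocyte scores of 4.48 to 6.30 and endoderm scores of 5.41 to 8.90, and ventricle-like parts had 6.61 to 8.05 and 1.49 to 8.05. Of the 66 further pathway genes tested, none passed by edgeR and 5 had an unadjusted p under 0.05, as did 889 of the 15703 genes tested.

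Against the matching chambers, both HO parts had more Cpt1a and Acadvl and less Cpt1b. In atrium-like parts Cpt1a was 6.63-fold higher than in atria (log2 2.73, SE 0.41, edgeR adjusted p = 0.00642) and Acadvl was 3.08-fold higher (log2 1.63, SE 0.28, edgeR adjusted p = 0.00987). Cpt2 was 2.79-fold higher (log2 1.48, SE 0.44, edgeR adjusted p = 0.0470), and Cpt1b was 4.70-fold lower (log2 -2.23, SE 0.39, edgeR adjusted p = 0.0101). Thus 3 of the 10 genes rose and 1 fell, where 31.5% of the 15418 genes tested passed. Ppara had a log2 difference of 2.33 (SE 0.72, adjusted p = 0.0507), and Acadl, Hadha, Acadm, Cd36 and Fabp3 had 0.95, 0.44, 0.39, 0.21 and -0.42.

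In ventricle-like parts Cpt1a was 4.58-fold higher than in ventricles (log2 2.20, SE 0.24, edgeR adjusted p = 0.00291) and Acadvl was 1.77-fold higher (log2 0.83, SE 0.20, edgeR adjusted p = 0.0281). Fabp3 was 3.37-fold lower (log2 -1.75, SE 0.29, edgeR adjusted p = 0.00899), and Cpt1b was 3.11-fold lower (log2 -1.64, SE 0.37, edgeR adjusted p = 0.0227). Thus 2 of the 10 genes rose and 2 fell, where 29.6% of the 15094 genes tested passed. Cd36 had a log2 difference of 1.03 (SE 0.36, adjusted p = 0.0753), and Acadm had -0.81 (SE 0.47, adjusted p = 0.234). Cpt2, Ppara, Acadl and Hadha had 0.55, 0.27, 0.06 and -0.23. For the markers of cells that also express Cd36, HOs had macrophage scores of 1.98 to 5.55 against 1.09 to 2.97 in E11.5H and endothelial scores of 1.08 to 4.40 against 5.88 to 6.21, and their part in the values of Cd36 was not tested. The erythroid score was 6.37 to 9.41 in E11.5H, with all 10 genes detected, and -0.17 to 0.55 in HOs, with 6 to 9 detected, and its part in the differences between HO parts and E11.5H was not tested.

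**Figure D3:**
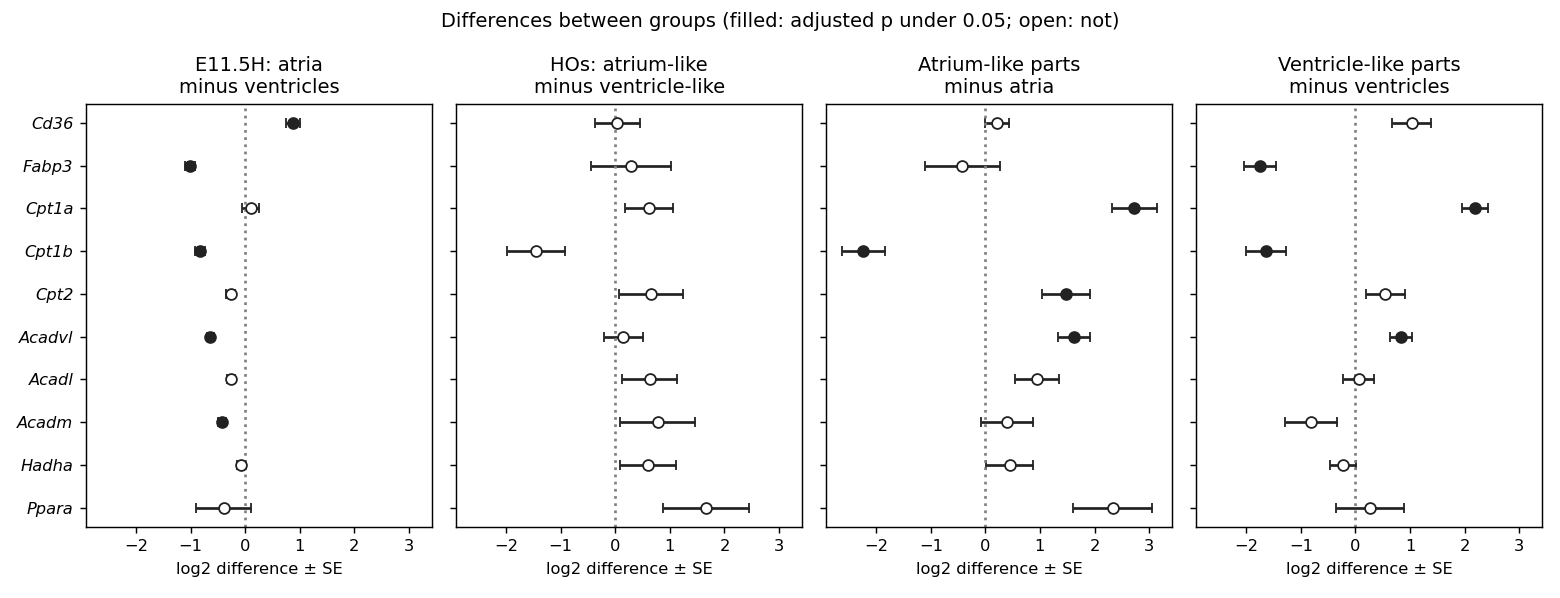
Log2 difference ± SE of each of the 10 genes in the 4 comparisons of groups, from edgeR. Filled points have an adjusted p under 0.05. Cpt1a and Acadvl lie above 0 and Cpt1b lies below 0 in both comparisons of HO parts with E11.5H, and no point is filled between the HO parts.

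The number of calls depended on single libraries. In atrium-like parts against atria, Cpt1a and Cpt1b remained as the only 2 calls without any 1 of the 3 atrial libraries, and 7 of the 10 genes were called without atrium-like replicate 2, which held skeletal muscle genes. In ventricle-like parts against ventricles, Cpt1a and Fabp3 remained as the only 2 calls without any 1 of the 3 ventricular libraries or without ventricle-like replicate 1. Cpt1a was called each time a library was left out, with log2 differences between 2.20 and 3.02 for atrium-like and between 1.97 and 2.35 for ventricle-like parts. The ventricle-like difference of Cpt1b was -2.06 to -1.31.

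The levels were also set against those of the cardiomyocyte genes. When each library was scaled to equal mean levels of the 16 cardiomyocyte genes, the median log2 difference of all genes was 3.64 in atrium-like parts against atria and 2.39 in ventricle-like parts against ventricles. On it Cpt1b had log2 differences of 1.06 (SE 0.49, edgeR adjusted p = 0.0585) and 0.41 (SE 0.32, edgeR adjusted p = 0.254), and both differences were below the median of all genes on that scale. Fabp3 had 2.71 (edgeR adjusted p = 0.00171) and 0.35 (edgeR adjusted p = 0.332). Cpt1a had 6.63 and 4.50, above the median of all genes in both. With this scaling 9 of the 10 genes passed in atrium-like and 8 in ventricle-like parts, each as a rise, where 13980 and 12820 genes of the whole table passed.

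Among the further pathway genes, 26 of 66 rose and 5 fell in atrium-like parts, and 17 of 64 rose and 10 fell in ventricle-like parts. This is 47% and 42.2% called, against 31.5% and 29.6% over all genes. The 26 rises include Fabp1, Fabp2, Slc27a2, Slc27a5, Cyp4a10 and Ucp3, and the 17 include Fabp1, Fabp2 and Slc27a2. All of these passed the low-count filter through the HO libraries alone and so could only rise. The shares, and the medians below, were not computed without genes of this kind. The number called was 10 without atria replicate 1 and 41 without atrium-like replicate 2 in the former, and 10 without ventricles replicate 2 and 35 without ventricle-like replicate 2 in the latter. Their median log2 differences were 0.97 and 0.48, against 0.06 and 0.09 over all genes tested and 0.70 and 0.16 over the 10 genes. The largest changes in atrium-like parts were those of the intestinal and liver binding proteins Fabp2 and Fabp1, of Cyp4a10, an ω-hydroxylase of fatty acids, of Slc27a2, a fatty acid transporter and very long-chain acyl-CoA synthetase, and of Pparg, a nuclear receptor of lipid storage. Atrial libraries had 0.0319 to 0.644 and atrium-like parts 718 to 4161 FPKM of Fabp2, and Fabp1 had 0.361 to 0.552 and 639 to 8851 FPKM. Slc27a2 had at most 2 counts in each atrial library and 3.33 to 34.3 FPKM in atrium-like parts. Cyp4a10 likewise had at most 2 counts and 4.21 to 80.8 FPKM. Pparg had 0.328 to 0.477 FPKM in atria and 5.92 to 16.9 FPKM in atrium-like parts (log2 5.23, SE 0.57, edgeR adjusted p = 0.00303).

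In ventricle-like parts the 5 largest changes were rises of Fabp2, Fabp1, Angptl4, Slc27a2 and Fabp4, the adipocyte form of the binding proteins. Of these, Fabp2, Fabp1 and Slc27a2 passed the low-count filter through the HO libraries alone and so could only rise. Ventricular libraries had 1.81 to 5.06 and ventricle-like parts 69.7 to 245 FPKM of Angptl4 (log2 5.80, SE 0.69, edgeR adjusted p = 0.00353). Fabp4 had 1.46 to 3.25 and 13.5 to 161 FPKM (log2 4.81, SE 1.04, edgeR adjusted p = 0.0200). Fabp1 had 0.182 to 0.426 FPKM in ventricles and 2.99 to 451 FPKM in ventricle-like parts. Without any 1 of the 3 ventricular libraries Fabp1, Fabp2, Fabp4 and Slc27a2 were no longer called (adjusted p up to 0.141), and Slc27a2 was also lost without ventricle-like replicate 3. Angptl4 and the 5 genes named for atrium-like parts were called each time a library was left out. Of the 6 defining adipocyte genes, 1 to 3 were detected in each HO library and the score was -0.78 to 0.43.

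A list of 9 liver-type genes (Cpt1a, Fabp1, Slc27a2, Slc27a5, Acsl5, Ehhadh, Acaa1b, Cyp4a10 and Cyp4a14) and a list of 11 muscle-type genes (Cpt1b, Fabp3, Slc27a1, Slc27a6, Acsl1, Lpl, Acacb, Mlycd, Ppargc1a, Esrrg and Ucp3) were compared in the same way. Of the liver-type list, Slc27a2, Slc27a5 and Cyp4a10 had at most 2 counts in each atrial library, and Fabp1 had 6 to 10 counts there. These genes passed the low-count filter through the HO libraries alone, so no count or median of the list is given for atrium-like parts. Slc27a5, a bile acid and fatty acid ligase, had no count in atria and was at least 10.4-fold higher in atrium-like parts, against a floor of 3 counts per library. The genes with 84 counts or more in every atrial library were Cpt1a and 3 others, which all rose in atrium-like parts, namely Acsl5 (log2 2.88, SE 0.60, edgeR adjusted p = 0.0157), Ehhadh, a peroxisomal enzyme of fatty acid oxidation (4.98, SE 1.08, adjusted p = 0.0177), and Acaa1b, a peroxisomal thiolase (4.46, SE 1.18, adjusted p = 0.0322). In ventricle-like parts these 3 had 0.53, 1.63 and 1.55 (adjusted p = 0.135, 0.154 and 0.0782 by edgeR). Of the 11 muscle-type genes, 3 rose and 3 fell in atrium-like parts, and 2 rose and 5 fell in ventricle-like parts. Over all genes tested, 31.5% and 29.6% passed in these comparisons. Ucp3, which was 1 of the 3 that rose, had at most 1 count in each atrial library and passed the filter through the HO libraries alone. Those that fell in ventricle-like parts were Cpt1b, Fabp3, Acacb, which makes the malonyl-CoA that inhibits CPT1, Ppargc1a, a coactivator of mitochondrial genes, and Esrrg, an orphan receptor of oxidative muscle. The comparisons of HO parts with E11.5H share their HO and E11.5H libraries with the comparisons between parts and between chambers, so they are not independent of them.

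The difference between the chamber effects in HOs and in E11.5H was tested as an interaction over all 12 libraries. None of the 10 genes passed by edgeR, where 0.152% of the 16494 genes tested did, and none had an unadjusted p under 0.05 or passed by DESeq2. The interaction was 2.03 (SE 0.98, adjusted p = 0.447) for Ppara, 1.31 (SE 0.82, adjusted p = 0.559) for Fabp3 and -0.84 (SE 0.44, adjusted p = 0.490) for Cd36 on the log2 scale. The standard errors of 0.37 to 0.98 over the 10 genes show how coarse this test was. The chamber differences of Fabp3, Acadvl, Acadm and Cd36 in E11.5H were therefore not shown to differ from those in HOs.

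Whether liver-type genes followed endoderm content was examined over the 6 HO libraries, by the change in log2 expression per unit of the endoderm score. Acadm rose with the score, by 0.32 per unit (SE 0.05, edgeR adjusted p = 0.0207), and it was the only one of the 10 genes to pass, where 9.03% of the 16458 genes tested did. In order of rising endoderm score, from 1.49 over 3.91, 5.41, 8.05 and 8.71 to 8.90, Acadm had 22.2, 30.6, 27.1, 80.4, 75.0 and 89.4 FPKM. Cpt2 (0.24, adjusted p = 0.0712), Acadl (0.20, adjusted p = 0.0900), Ppara (0.34, adjusted p = 0.140) and Hadha (0.17, adjusted p = 0.184) had positive slopes that did not pass by edgeR's test.

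Cpt1a, the liver form, had a slope of 0.07 (SE 0.08, edgeR adjusted p = 0.619). In the same order it had 31.6, 41.4, 44.0, 25.8, 23.96 and 63.0 FPKM. The library with the highest score had the highest value, and the libraries with the next highest scores had the lowest values. Without atrium-like replicate 1 its slope was -0.06 (edgeR adjusted p = 0.535). Fabp3, Cpt1b and Cd36 had slopes of 0.02, 0.00041 and -0.02, and Acadvl had 0.09.

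The call of Acadm depended on the libraries. Its slope stayed at 0.29 to 0.39 when any 1 HO library was left out, but the adjusted p by edgeR was 0.0517 to 0.0748 without atrium-like replicate 1 or 3 or ventricle-like replicate 1 or 2. It was 0.203 with the replicate number as a block and 0.141 without both libraries that held skeletal muscle genes, a fit in which no gene of the whole table passed, and 0.104 with a score of 12 gut epithelium genes in place of the endoderm score. With the cardiomyocyte score as a further term the slope was 0.31 (edgeR adjusted p = 0.0356). All p-values of slopes take the HO libraries as independent, although these may share HOs.

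**Figure D4:**
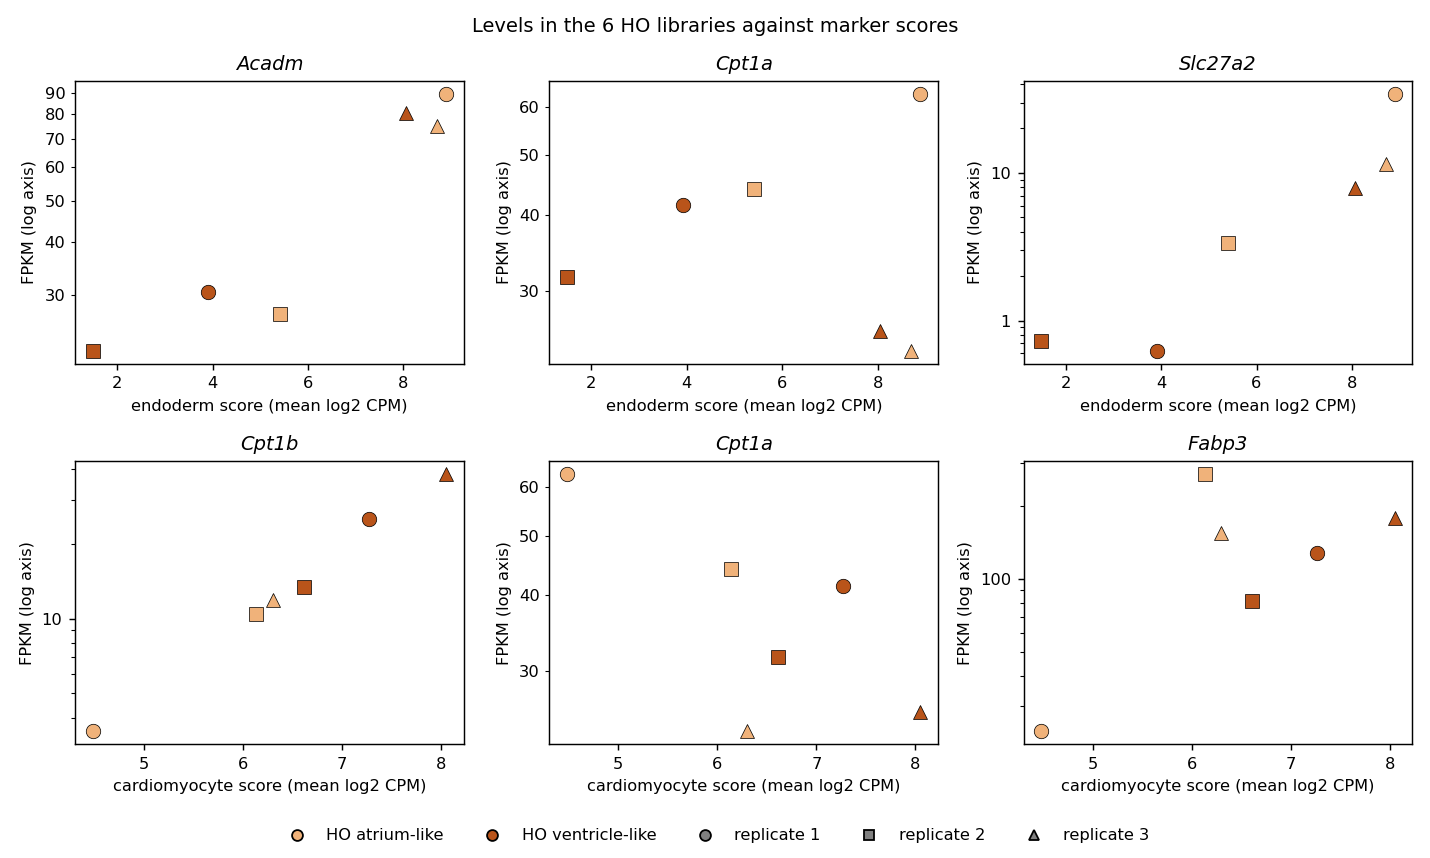
FPKM (log axes) of Acadm, Cpt1a and Slc27a2 against the endoderm score, and of Cpt1b, Cpt1a and Fabp3 against the cardiomyocyte score, in the 6 HO libraries, with colours for the part and symbols for the replicate. Acadm reaches 75.0 FPKM or more in the 3 libraries with the highest endoderm scores, Cpt1a shows no such order, and Cpt1b increases at each step of the cardiomyocyte score.

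The other liver-type genes had steeper slopes on the endoderm score than Cpt1a. Of the 8 tested, 1 rose with the score by edgeR, namely Slc27a2 (0.76 per unit, SE 0.13, adjusted p = 0.0249). This call was lost without atrium-like replicate 3 or ventricle-like replicate 1 or 2 (adjusted p up to 0.0660), with the part as a further term (0.0716), with the replicate block (0.0846), with the gut epithelium score (0.106) and without both libraries that held skeletal muscle genes (0.139). Slc27a5 had no count in ventricle-like replicates 1 and 2, and Cyp4a10 had none in ventricle-like replicate 2. These libraries had the lowest endoderm scores, so the slopes of both genes rest in part on an absence of counts. With both genes included, all 8 slopes were positive and the median was 0.71, against -0.01 over all genes tested. By edgeR 5 of the 8 had an unadjusted p under 0.05, as did 4784 of the 16458 genes tested. Fabp1 had the steepest slope, at 1.23 (SE 0.32, edgeR adjusted p = 0.0589). In order of rising score Fabp1 had 2.99, 120, 794, 451, 639 and 8851 FPKM, and Slc27a2 had 0.732, 0.624 and 3.33 FPKM in the libraries with the lower scores and 7.85 to 34.3 FPKM in those with the higher ones. Ehhadh (0.70, adjusted p = 0.0539) and Acsl5 (0.37, adjusted p = 0.0883) did not pass by edgeR. The lowest slope of the 8 was that of Cpt1a. Since the score and these genes were measured in the same libraries, atrium-like replicate 1 is the end point of most of them, with the highest level of 7 of these 8 genes.

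Of the 11 muscle-type genes, 6 had positive slopes on the endoderm score, with a median of 0.00041, and Acsl1, an acyl-CoA synthetase, was the only one that rose (0.20, edgeR adjusted p = 0.0482). Over all 66 further pathway genes tested, 6 rose and 1 fell, which is 10.6% called, near the 9.03% over all genes. With 1 library left out the number called was 0 to 8, and none rose without atrium-like replicate 3 or ventricle-like replicate 1 or 2, or with the part as a further term. DESeq2 called 27 rises and 6 falls. The 5 with the largest slopes among the genes that rose and had at least 1 FPKM were Slc27a2, Pparg (0.35, adjusted p = 0.0298), Slc25a20, the carnitine carrier of the inner membrane (0.29, adjusted p = 0.0444), Acsl1, and Abcd3, a peroxisomal membrane transporter (0.19, adjusted p = 0.0496), all by edgeR. Of the 6 fits with 1 library left out, Pparg was called in 2, Slc25a20 and Acsl1 in 1 and Abcd3 in 0 by edgeR, whereas DESeq2 on all 6 libraries called all 5. The gene that fell was Acsl6 (-1.21), which was named after its values were seen.

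**Figure D5:**
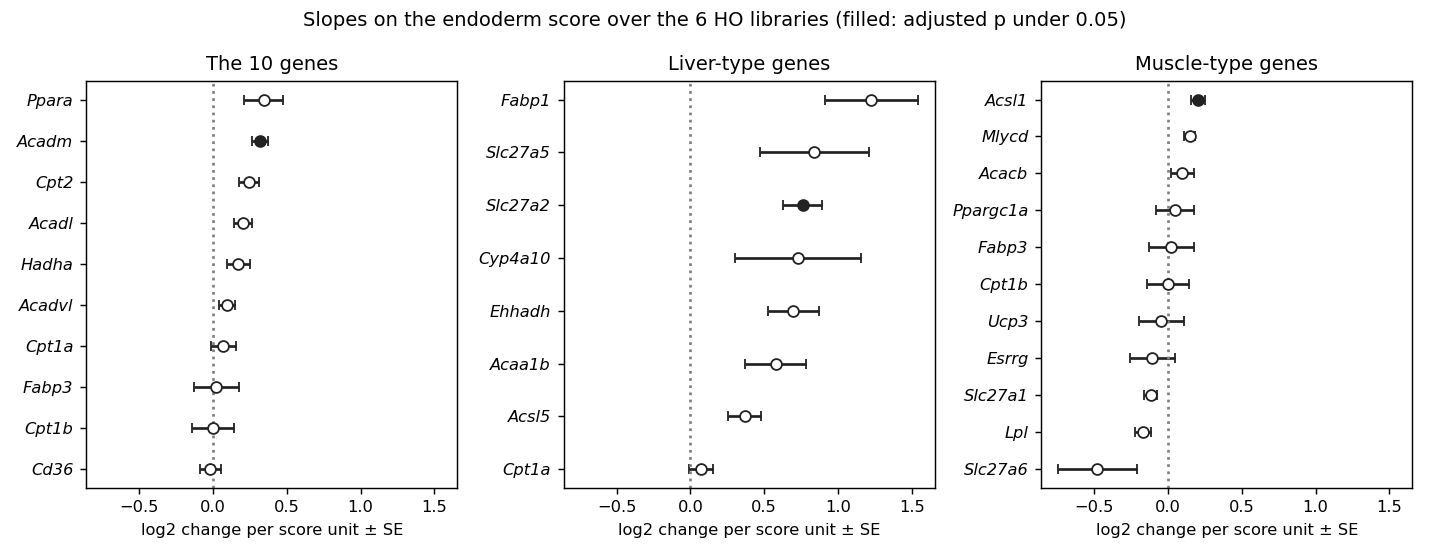
Change in log2 expression per unit of the endoderm score ± SE over the 6 HO libraries, from edgeR, for the 10 genes, the 8 liver-type genes tested and the 11 muscle-type genes. Filled points have an adjusted p under 0.05. All 8 liver-type slopes lie above 0 and that of Cpt1a is the lowest of them, while muscle-type slopes lie on both sides of 0. The 8 include Slc27a5 and Cyp4a10, which had no count in at least 1 HO library.

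Along the cardiomyocyte score, none of the 10 genes passed by edgeR, where 0.0668% of the 16458 genes tested did. By edgeR 3 of the 10, namely Cpt1b, Cpt1a and Ppara, had an unadjusted p under 0.05, as did 1359 of the 16458. Cpt1b had a slope of 0.87 per unit (SE 0.09, unadjusted p = 5.53e-05, adjusted p = 0.0569 by edgeR), and DESeq2 called it and none of the other 9. In order of rising cardiomyocyte score, from 4.48 over 6.13, 6.30, 6.61 and 7.27 to 8.05, Cpt1b had 3.53, 10.4, 11.8, 13.4, 25.3 and 38.2 FPKM. Each step of the score came with a step of Cpt1b, and the atrium-like libraries were the lowest 3 on both. Cpt1a had a slope of -0.41 (SE 0.13, unadjusted p = 0.0177, adjusted p = 0.518) and Fabp3 had 0.48 (SE 0.39, adjusted p = 0.778). Of the liver-type list all 8 slopes were negative with a median of -0.89, and of the muscle-type list 9 of 11 were positive with a median of 0.17. The median over all genes tested was 0.01, and no gene of either list passed by edgeR. Atrium-like replicate 1, with the lowest cardiomyocyte score, had the highest level of 7 of the 8 liver-type genes. Without it the median slope of the 10 genes was 0.30, against -0.26 with it, and the medians of the lists were not computed. The 8 liver-type genes again include Slc27a5 and Cyp4a10, which had no count in at least 1 HO library.

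The endoderm and cardiomyocyte scores did not rank the HO libraries in opposite order, since ventricle-like replicate 3 had the highest cardiomyocyte score and the third highest endoderm score, 8.05.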

How the data were processed

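RNA-seq of 12 libraries (4 groups of 3) was analysed. The labels name a TruSeq kit, and the methods state that Takara prepared and sequenced the libraries. Per the labels and methods, the authors mapped reads to GRCm38/mm10 with STAR, and versions, the counter, its annotation and strand setting are not given in the sources used here. Deposited by the authors were unnormalized expected counts of fragments in each gene (23.8% of values not whole), FPKM, and transcript widths.

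After rounding, edgeR 4.0.16 under R 4.3.3 was run on the counts (TMM, quasi-likelihood test, filterByExpr minimum count 10, Benjamini-Hochberg adjustment over all genes tested, called at adjusted p under 0.05), each pair of groups in its own fit. The interaction used all 12 libraries, and slopes on marker scores used the 6 HO libraries. Replicates of each group differed beyond sampling noise, so all 12 libraries were counted. Ratios used exact permutation tests in scipy 1.17.1. In planned correlations over the 6 HO libraries, Acadm had an adjusted p of 0.125 on the endoderm score (exact permutation test of Pearson r). Outside the plan, Cpt1b had an adjusted p of 0.0139 on the cardiomyocyte score by the same test. The other genes did not pass on either score. These p-values take the libraries as independent, although they may share HOs. The p-values of the slopes rest on the same 6 libraries and have the same limit. GENCODE M21 gave overlapping genes. The code was tested on simulated data.

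The members, lists, scores and tests were chosen with earlier results of these data known. Named were all 10 genes, Cpt1c, up to 5 called pathway genes per comparison with the largest change and a mean of at least 1 FPKM in the higher group, the liver-type and muscle-type lists for the slopes, and the 5 genes most like Cpt1a and Cpt1b. Some genes of these lists are not reported here and were left out of the lists' counts. Genes outside this rule were chosen after their values were seen. Alternatives were DESeq2 1.42.0, other size factors, no filter, a 2-fold limit, all libraries in 1 fit, cardiomyocyte scaling, further terms, a replicate block and leaving out libraries.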

Additional observations from a re-analysis of the deposited data

How the results depend on the processing

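The depth was at least 23971258 fragments per library. Each of the 10 genes had 34 or more counts in every library, and the depth limited the levels of pathway genes with few or no counts in a group, among them Slc27a2, Slc27a5, Cyp4a10, Cyp4a14, Ucp3 and Acsl6. Other size factors and no low-count filter left the number of the 10 genes called within 1.5 times in every comparison. Fitting all 12 libraries together left 0 of the 10 called between the chambers of E11.5H, and adding a 2-fold limit left 1. Scaling to the cardiomyocyte genes, which moved the median log2 difference of all genes by up to 3.58, gave 1 call between the HO parts, 9 in atrium-like parts against atria, 8 in ventricle-like parts against ventricles and 0 on the endoderm slope. DESeq2 called 4 genes on the endoderm slope (Acadm, Acadl, Cpt2 and Ppara) and 1 on the cardiomyocyte slope (Cpt1b). The endoderm slope had 0 calls with the gut epithelium score and, in a fit chosen after seeing the data, without both libraries that held skeletal muscle genes. The cause of these changes was not tested.

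Leaving out 1 library at a time gave 5 to 6 calls between the chambers, 0 between the HO parts, 2 to 7 for atrium-like parts against atria, 2 to 6 for ventricle-like parts against ventricles, 0 in the interaction, 0 to 1 on the endoderm slope and 0 on the cardiomyocyte slope. The difference in the log2 ratio of Cpt1a to Cpt1b kept its direction with 0.1 or 1 FPKM added to each value and when 1 library was left out, at 0.77 to 1.06 between chambers, 1.09 to 2.66 between HO parts, 4.10 to 5.67 between atrium-like parts and atria and 3.56 to 4.46 between ventricle-like parts and ventricles in the latter.

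The labels number the replicates alike in all groups. The deviations of same-numbered HO libraries correlated at 0.0174, 0.589 and 0.36, and those of E11.5H at 0.0071 to 0.0431. Both HO libraries that held skeletal muscle genes carry the number 2. Whether same-numbered HO parts are paired is not settled by these values, and the main fits left the number out. Atrium-like replicate 1 correlated better with ventricle-like replicate 3 (0.436) than with its own number. With the number as a replicate block, 5 genes were called between the chambers, 0 between the HO parts, 3 in each HO part against E11.5H, 0 in the interaction, 0 on the endoderm slope and 0 on the cardiomyocyte slope. Under the block, sign changes were seen for Fabp3 between the HO parts (-0.11), Acadl in ventricle-like parts (-0.017), and Cpt1b (-0.37) and Fabp3 (-0.10) on the endoderm slope.

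Other changes of sign were as follows. Scaled to cardiomyocyte genes, Hadha had 0.16 between the chambers, Cpt1b 0.057 between the HO parts, Cpt1b 1.06 and Fabp3 2.71 in atrium-like parts, Cpt1b 0.41, Acadm 1.15, Hadha 1.91 and Fabp3 0.35 in ventricle-like parts, Cpt1b 0.65 and Cd36 0.64 in the interaction and Cd36 0.20 on the endoderm slope. Without both libraries that held skeletal muscle genes, Fabp3 had -0.62 and Cd36 -0.014 between the HO parts, and Cpt1b -0.19 and Fabp3 -0.045 on the endoderm slope. With the part as a further term Cpt1a had -0.0086 on the endoderm and Acadm 0.041 on the cardiomyocyte slope, and with the cardiomyocyte score as a further term Cpt1a had -0.011 on the endoderm slope. With 1 library left out, the values of those that changed sign were -0.025 to 0.27 (Cpt1a) and -0.75 to 0.056 (Ppara) between the chambers, and -0.083 to 1.04 (Cpt2), -0.019 to 0.92 (Acadl), -0.27 to 0.33 (Acadvl), -0.15 to 0.88 (Hadha), -0.34 to 0.76 (Fabp3) and -0.23 to 0.51 (Cd36) between the HO parts. They were -0.048 to 0.78 (Acadm), -0.28 to 0.72 (Hadha), -1.07 to 0.047 (Fabp3) and -0.038 to 0.31 (Cd36) in atrium-like parts, -0.23 to 0.34 (Acadl), -0.44 to 0.0043 (Hadha) and -0.15 to 0.71 (Ppara) in ventricle-like parts, and -0.043 to 0.98 (Hadha) in the interaction. On the endoderm slope they were -0.064 to 0.12 (Cpt1a), -0.15 to 0.10 (Cpt1b), -0.16 to 0.14 (Fabp3) and -0.094 to 0.035 (Cd36), and on the cardiomyocyte slope -0.63 to 0.41 (Cpt2), -0.72 to 0.34 (Acadm), -0.56 to 0.30 (Acadl), -0.29 to 0.33 (Acadvl), -0.57 to 0.30 (Hadha) and -0.16 to 0.75 (Fabp3). None of these values was called by edgeR before or after the change of sign except Cpt1b and Fabp3 before, and Fabp3, Acadm and Hadha after, the cardiomyocyte scaling.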
